A study of Mus musculus with 18 samples.

Results

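Farnesoid X receptor (FXR) is the nuclear receptor for bile acids, and Nr1h4 is its gene in mice. The genes described here are Nr1h4, 7 genes close to it on chromosome 10 (Scyl2, Apaf1, Ikbip, Slc25a3, Tmpo, Nedd1 and Nr2c1) and Nnt on chromosome 13, which makes 9 genes. Members were taken by gene symbol from the array's annotation, with every probe set and every array kept. They were selected on earlier results of these data, in which the levels of these genes in knockout and WT livers were known. A probe set is the group of short oligonucleotides that measures 1 transcript on the array. Of the 9 genes, 8 were measured, by 15 of the 22690 probe sets, while the series as a whole covers 12394 genes. Tmpo had 4 probe sets, Apaf1, Nedd1, Nr2c1 and Nnt had 2 each, and Nr1h4, Ikbip and Slc25a3 had 1 each. No probe set carried the symbol Scyl2, so that gene has no value here.

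The series profiled liver RNA of male mice on 18 Affymetrix arrays, 3 for each of 6 groups. Mice were wild type (WT), liver-specific Fxr knockout (LKO) or whole-body Fxr knockout (WBKO), and each genotype was gavaged with vehicle or with GW4064, a synthetic FXR agonist. The labels give every group the C57BL/6J background, an age of 10 to 16 weeks, 2 gavages at 150 mg/kg for GW4064 and 0 mg/kg for vehicle, and collection 2 hours after the last gavage. The study's methods for mice describe WT mice alone, another dose and schedule of GW4064 and an overnight fast, so the labels were followed. The methods' t-test named below is the unpaired test the study used for its own WT mouse arrays. The LKO mice (AFXR Cre+) came from crossing Fxr floxed/floxed mice with mice that carry Cre under the albumin promoter, which is active in hepatocytes. The labels of the WT groups name neither a floxed allele nor Cre, and nothing says that WT mice were littermates of either knockout. FXR loss, the altered allele, the Cre transgene and the line of mice therefore cannot be told apart in any comparison of a knockout with WT. Where the probes of Nr1h4 lie relative to the deleted part of the gene is not given in the sources used here.

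FXR pairs with the retinoid X receptor on DNA and, when bile acids or GW4064 bind it, raises the genes for bile acid export and for the repressor Nr0b2, which in turn lowers bile acid synthesis. A gene knocked out in embryonic stem cells of 1 mouse strain and then crossed to another keeps a stretch of donor chromosome around the altered gene, so neighbouring genes can come from the donor strain. Nnt, nicotinamide nucleotide transhydrogenase, uses the proton gradient of the inner mitochondrial membrane to make NADPH. It is known for carrying a deletion in C57BL/6J mice that many other strains, C57BL/6N among them, do not have. These points are background, and no genotyping of these mice was analysed here.

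All levels are the deposited log2 values, and differences are knockout minus WT on the log2 scale unless a fold is given. The 18 arrays had medians between 5.96 and 6.00. WT GW4064 replicate 1 had the widest relative expression range, with an interquartile range of 0.255 against 0.130 for the narrowest array, and WBKO GW4064 replicate 3 had the lowest mean correlation with the other arrays, 0.9858. WT GW4064 replicate 3 correlated best with a vehicle array, as did LKO GW4064 replicates 1 and 3 and every WBKO GW4064 array. Without WT GW4064 replicate 3 the probe sets called for GW4064 in WT went from 4 to 393 of 22690. All 9 measured hepatocyte markers read above the array median on all arrays, and the 5 cholangiocyte and 6 lymphocyte markers read below it. Also above it on all arrays were 5 of 7 Kupffer cell, 5 of 8 endothelial, 3 of 8 stellate cell, 2 of 5 enterocyte and 1 of 3 pancreas markers. The summed neutrophil level reached 8.94 in WT GW4064 and at most 7.42 in the other groups. With GW4064 the summed pancreas level was 8.37 to 9.72 in WT, 10.28 to 10.48 in LKO and 7.99 to 9.98 in WBKO. The labels do not say whether each array is a separate mouse, so the p-values measure only the spread between arrays. LKO vehicle replicate 3 stood apart from the other knockout arrays in Nnt, as described below. Nnt differences that use the LKO vehicle mean are given with and without it, and its spread enters the SE of every Nnt comparison.

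Nr1h4 was low on every knockout array. The WT vehicle arrays read 9.01, 9.39 and 8.83 and the WT GW4064 arrays 8.99, 8.94 and 9.15. The LKO arrays read 4.46, 4.29 and 4.63 with vehicle and 4.17, 4.69 and 4.37 with GW4064. The WBKO arrays read 4.21, 4.27 and 4.12 with vehicle and 4.14, 4.30 and 3.98 with GW4064. No knockout array came within 4 log2 units of the WT arrays, so every array read low or high in Nr1h4 as its genotype label has it. Since earlier levels chose the genes, vehicle differences are given without a test: −4.61 (SE 0.14) in LKO and −4.88 (SE 0.14) in WBKO. Whether GW4064 levels were in view as well is not known, and the fit's spread includes the vehicle arrays. The GW4064 tests, here and below, are thus not independent evidence. With GW4064 the difference was −4.62 (SE 0.14) in LKO, 24.6-fold lower, with an adjusted p of 3.4e-12 in limma's test over all probe sets. In WBKO it was −4.89 (SE 0.14), 29.6-fold lower, with an adjusted p of 1.33e-12. The methods' t-test with Benjamini-Hochberg adjustment ended the LKO call (−4.62, adjusted p = 0.0515) and kept the WBKO call.

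The group means of Nr1h4 ran from 9.08 in WT vehicle and 9.03 in WT GW4064 to 4.46 in LKO vehicle, 4.41 in LKO GW4064, 4.20 in WBKO vehicle and 4.14 in WBKO GW4064. Neighbours in this order overlapped, except that both WT groups lay above all knockout arrays. WBKO read 0.27 below LKO with GW4064, and this difference did not pass the test (SE 0.14, adjusted p = 0.421). With vehicle WBKO read 0.26 below LKO and the arrays did not overlap. In bulk liver, fewer cells that express a gene and less RNA per cell cannot be told apart, and Cre from the albumin promoter leaves Nr1h4 intact in cells other than hepatocytes. GW4064 did not move Nr1h4 past the threshold in any genotype, with differences of −0.05 (SE 0.14, adjusted p = 0.944) in WT, −0.05 (SE 0.14, adjusted p = 0.999) in LKO and −0.06 (SE 0.14, adjusted p = 0.979) in WBKO.

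**Figure D1:**
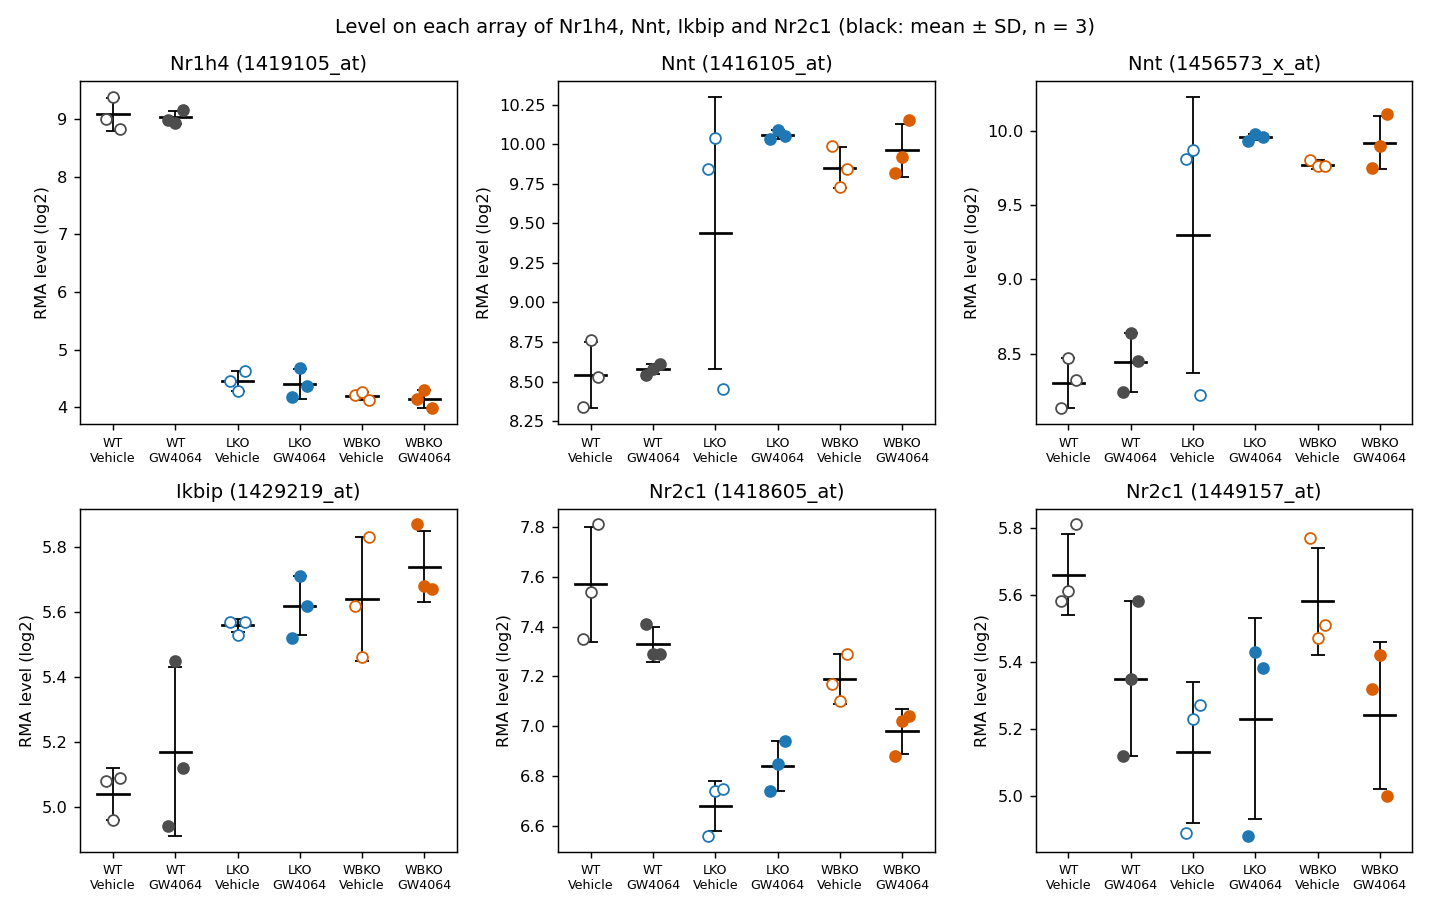
Log2 level on each of the 18 arrays (points, open for vehicle and filled for GW4064) with group mean ± SD (black, n = 3) for 6 probe sets of Nr1h4, Nnt, Ikbip and Nr2c1. Nr1h4 is near 9 in WT and near 4 in the knockouts, and in both Nnt panels LKO vehicle replicate 3 lies among the WT arrays at 8.45 and 8.22.

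RefSeq's table of promoters (build GRCm38.p6) held 7 windows for 6 of the 9 genes, and the 250 bases before the start of 2 of them are shown. The Nr1h4 window, chr10:89506659-89506908 on the minus strand, is shown because it belongs to the targeted gene. Its capitals mark the only match to AGGTCA, the core string of nuclear receptor sites, which lies on the opposite strand and so reads as its complement.
Nr1h4: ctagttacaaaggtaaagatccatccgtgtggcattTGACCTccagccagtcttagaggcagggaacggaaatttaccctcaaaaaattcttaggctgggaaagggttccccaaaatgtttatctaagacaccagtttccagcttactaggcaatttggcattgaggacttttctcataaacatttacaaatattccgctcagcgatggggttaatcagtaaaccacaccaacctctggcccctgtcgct
Both strands were searched. AGGTCA was found in 14.0% of the 32851 windows of this length, and GGGTCA, another form of the core, in 11.6%. The inverted repeat with 1 base between the cores, the kind of site FXR is known to bind, was searched as GGTCANTGACC. It was found in 0.0335% of windows and in none of the 7 windows of these genes, and it can overlap either form of the core. A match is a string of letters, and its absence from this window says nothing of FXR binding elsewhere.

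Nnt read higher in both knockouts, with 1 exception among 12 knockout arrays. For the first probe set (1416105_at), the WT arrays read 8.34, 8.76 and 8.53 with vehicle and 8.54, 8.58 and 8.61 with GW4064. The LKO arrays read 9.84, 10.04 and 8.45 with vehicle and 10.03, 10.09 and 10.05 with GW4064. The WBKO arrays read 9.99, 9.73 and 9.84 with vehicle and 9.82, 9.92 and 10.15 with GW4064. LKO vehicle replicate 3, at 8.45, thus lay inside the WT range of 8.34 to 8.76, while the other 11 knockout arrays lay between 9.73 and 10.15. The second probe set (1456573_x_at) gave the same order of arrays by genotype, with WT between 8.13 and 8.64, LKO vehicle replicate 3 at 8.22 and the other 11 knockout arrays between 9.75 and 10.11. The suffix x marks a probe set with probes that can match other transcripts, yet the 2 Nnt probe sets had a Pearson r of 0.99 over the 18 arrays.

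With GW4064, where no array was out of place, Nnt was 1.48 higher in LKO than in WT (SE 0.26, 2.78-fold, limma adjusted p = 0.0123) and 1.38 higher in WBKO (SE 0.26, 2.61-fold, adjusted p = 0.00658). The second probe set was 1.51 higher in LKO (SE 0.28, adjusted p = 0.0156) and 1.48 higher in WBKO (SE 0.28, adjusted p = 0.00701). All groups share 1 estimate of the spread, so these SEs include LKO vehicle replicate 3. On the first probe set the SD was 0.86 in LKO vehicle and 0.03 in both LKO GW4064 and WT GW4064. Without that array the SE of GW4064 against vehicle in LKO was 0.12 on both probe sets, and the genotype calls were kept. How far its spread bears on the calls lost below was not tested. The LKO calls were sensitive to single arrays: without WT GW4064 replicate 1 the adjusted p was 0.0565 for the first probe set and 0.086 for the second, and without LKO GW4064 replicate 1 it was 0.0574 and 0.0721. Without LKO GW4064 replicate 2 or 3 the second probe set had an adjusted p of 0.0606 or 0.0505, and in all these fits its difference stayed between 1.41 and 1.52. The methods' t-test, adjusted, ended the call of the second probe set in LKO (adjusted p = 0.286) and of both in WBKO (0.195 and 0.283), with the same differences. WBKO and LKO did not differ past the threshold with GW4064 (−0.09, SE 0.26, adjusted p = 0.925 for the first probe set). With vehicle, and with no test, the WBKO difference was 1.31 and 1.47 for the 2 probe sets. The LKO difference was 0.90 and 1.0 with all arrays, and 1.40 and 1.53 without LKO vehicle replicate 3.

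The order of group means for the first Nnt probe set was LKO GW4064 (10.06), WBKO GW4064 (9.96), WBKO vehicle (9.85), LKO vehicle (9.44), WT GW4064 (8.58) and WT vehicle (8.54). The arrays of each pair of neighbours in this order overlapped, LKO vehicle and WT GW4064 through the 1 array alone. GW4064 against vehicle in LKO gave 0.61 (SE 0.26, adjusted p = 0.936), and 0.12 (SE 0.12, adjusted p = 0.999) without LKO vehicle replicate 3. In WT it gave 0.04 (SE 0.26, adjusted p = 0.976) and in WBKO 0.11 (SE 0.26, adjusted p = 0.978).

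LKO vehicle replicate 3 read as a knockout in the targeted gene and in Ikbip. Its Nr1h4 level of 4.63 and Ikbip level of 5.57 lay with the knockouts, and it correlated best with LKO vehicle replicate 2 (r = 0.9969). A count chosen after these values were seen asked, for each of the 12 knockout arrays, on how many probe sets that array alone read inside the WT range while the other 11 lay outside it. LKO vehicle replicate 3 had 9 such probe sets, 2 of them of Nnt, and the other arrays had between 6 and 51. Over all probe sets and all 12 arrays, only 2 of these cases had a gap of at least 0.5 between WT and the other knockout arrays, and both were Nnt in LKO vehicle replicate 3, with gaps of 0.97 and 1.1. On 143 probe sets all 12 knockout arrays lay outside the WT range. Nr1h4 had the widest gap of these, 4.14, ahead of Rarres2 at 1.38, and the only other probe set of the genes described here was that of Ikbip, ranked 128.

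**Figure D2:**
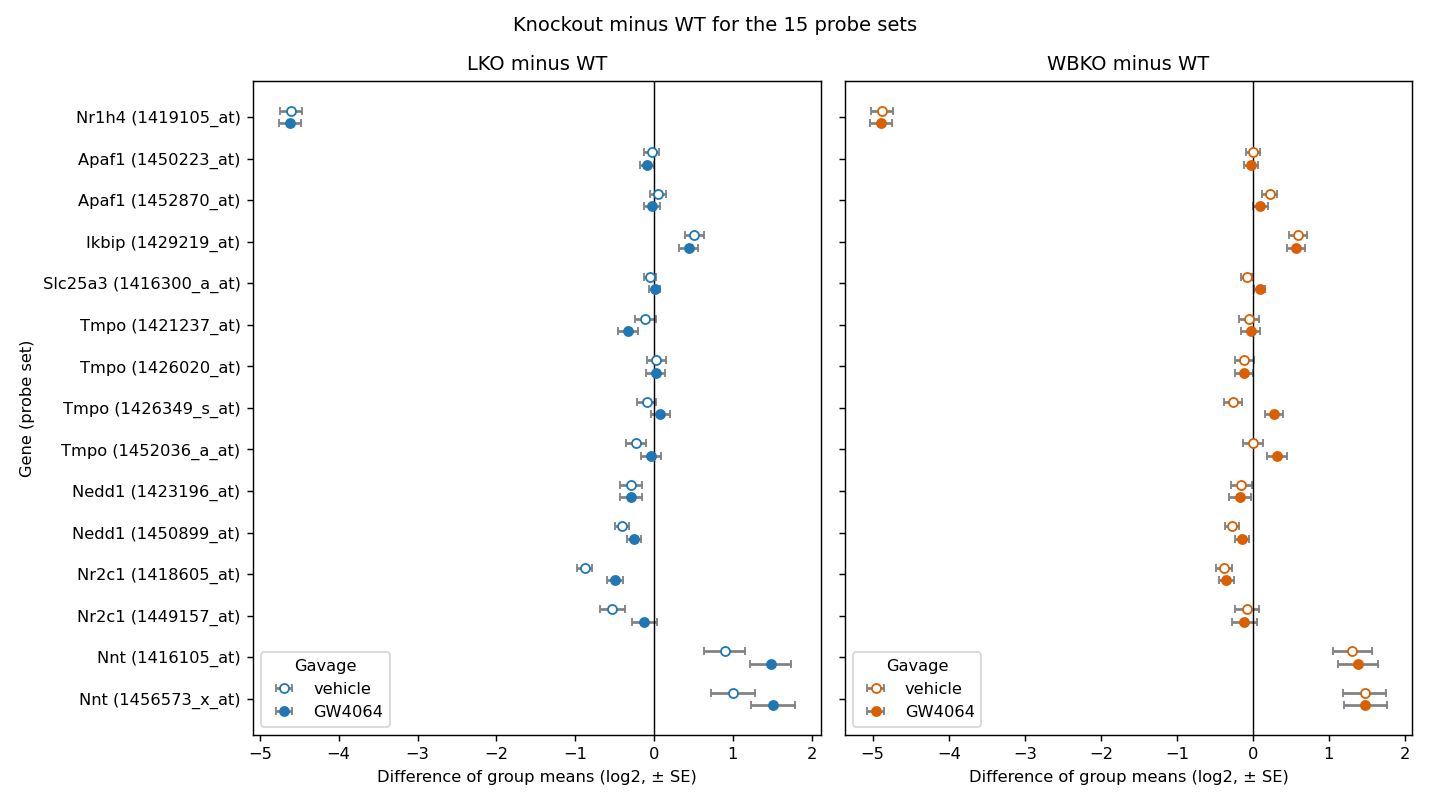
Difference of group means, knockout minus WT, in log2 units with its SE (bars) for the 15 probe sets in LKO (left) and WBKO (right), open for vehicle and filled for GW4064. Nr1h4 lies near −4.6 and −4.9, Nnt between 0.90 and 1.51, Ikbip between 0.44 and 0.59, and most others near 0.

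Ikbip, whose protein binds the kinase IKBKB of the NF-κB pathway, starts 1.63 Mb from Nr1h4. Its WT arrays read 5.08, 4.96 and 5.09 with vehicle and 4.94, 5.45 and 5.12 with GW4064. The LKO arrays read 5.57, 5.53 and 5.57 with vehicle and 5.52, 5.71 and 5.62 with GW4064, and the WBKO arrays 5.62, 5.46 and 5.83, and 5.87, 5.68 and 5.67. All 12 knockout arrays lay above the highest WT array, by as little as 0.01 (5.46 against 5.45). With GW4064 the difference was 0.57 in WBKO (SE 0.12, 1.48-fold, limma adjusted p = 0.00985) and 0.44 in LKO (SE 0.12, adjusted p = 0.0802). The WBKO call was lost without WT GW4064 replicate 1 (0.45, adjusted p = 0.0617) and without WBKO GW4064 replicate 1 (0.50, adjusted p = 0.0547), and LKO passed without WT GW4064 replicate 2 (0.58, adjusted p = 0.0192). The WBKO call was also lost with only the groups compared in the fit (adjusted p = 0.154) and by the methods' t-test after adjustment (0.435). With vehicle the differences were 0.51 in LKO and 0.59 in WBKO. The 2 knockouts did not differ past the threshold (0.13, SE 0.12, adjusted p = 0.689).

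Apaf1, whose protein binds cytochrome c and assembles the apoptosome that activates caspase 9, starts head to head with Ikbip. The Ikbip window (250 bases before its start, chr10:91082789-91083038, plus strand) shares 205 bases with the Apaf1 window. It is shown because Ikbip had a call and Apaf1 had none. Its capitals mark GC boxes, the string GGGCGG on either strand.
Ikbip: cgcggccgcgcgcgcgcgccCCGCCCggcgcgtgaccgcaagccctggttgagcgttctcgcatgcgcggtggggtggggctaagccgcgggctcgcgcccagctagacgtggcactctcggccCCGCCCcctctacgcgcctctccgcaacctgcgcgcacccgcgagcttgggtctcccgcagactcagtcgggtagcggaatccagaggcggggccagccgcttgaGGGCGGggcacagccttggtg
It held 3 GC boxes and 37 CpG dinucleotides, against a median of 6 CpG over all windows and 5 in the Nr1h4 window. GGGCGG was found in 32.7% of all windows, and in those of Apaf1, Ikbip, Slc25a3 and Tmpo. CCAAT was found in 33.8% of all windows, and in those of Nr2c1 and Tmpo. With GW4064 the 2 Apaf1 probe sets differed by −0.09 (SE 0.09) and −0.02 (SE 0.10) in LKO. In WBKO they differed by −0.02 (SE 0.09) and 0.10 (SE 0.10), and none passed the threshold. With vehicle 1452870_at was 0.22 higher in WBKO (SE 0.10), without overlap with WT, and 0.05 higher in LKO. There 1450223_at differed by −0.03 in LKO and −0.00 in WBKO. Over all 18 arrays the 2 probe sets read between 4.25 and 4.58 and between 4.78 and 5.34, with an r of −0.08 between them. These levels lay below the array medians of 5.96 to 6.00, as did those of Ikbip, so a difference in Apaf1 could be missed.

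Nr2c1, the gene of the orphan nuclear receptor TR2, starts 4.69 Mb from Nr1h4 and passed the test on 1 of its 2 probe sets. On 1418605_at the WT arrays read 7.35, 7.54 and 7.81 with vehicle and 7.41, 7.29 and 7.29 with GW4064. The LKO arrays read 6.56, 6.74 and 6.75, and 6.74, 6.85 and 6.94, and the WBKO arrays 7.17, 7.10 and 7.29, and 6.88, 7.02 and 7.04. All 6 LKO arrays lay below all WT arrays, and the WBKO arrays, from 6.88 to 7.29, overlapped with LKO (up to 6.94) and touched the WT range at 7.29. With GW4064 the difference was −0.49 in LKO (SE 0.10, 1.4-fold lower, limma adjusted p = 0.0326) and −0.35 in WBKO (SE 0.10, adjusted p = 0.0716). The LKO call was lost without WT GW4064 replicate 1 (adjusted p = 0.15) or replicate 2 (0.0656) and without LKO GW4064 replicate 1 (0.147), 2 (0.0897) or 3 (0.0507), with differences between −0.53 and −0.44. It was also lost with only the groups compared (adjusted p = 0.0869) and by the methods' t-test after adjustment (0.369). In WBKO the difference passed without WT vehicle replicate 1 (adjusted p = 0.0465) or replicate 3 (0.0356), after quantile normalization (0.0455) and with the replicate number as a block (0.0417). With vehicle the difference was −0.88 in LKO and −0.38 in WBKO, where WBKO read 0.50 above LKO without overlap.
On 1449157_at the GW4064 differences were −0.12 in LKO (SE 0.16, adjusted p = 0.821) and −0.11 in WBKO (SE 0.16, adjusted p = 0.793). With vehicle it read 5.13 in LKO against 5.66 in WT, a difference of −0.53 (SE 0.16) with arrays that did not overlap, and −0.08 in WBKO. The 2 probe sets thus both read lower in LKO with vehicle, and they had an r of 0.68 over the 18 arrays.

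The remaining neighbours had no probe set past the threshold. Nedd1, whose protein brings the γ-tubulin ring complex to the centrosome, starts between Tmpo and Nr2c1. With GW4064 its brighter probe set differed by −0.25 in LKO (SE 0.09, adjusted p = 0.225) and −0.14 in WBKO (SE 0.09, adjusted p = 0.463), and its other probe set by −0.29 (SE 0.14, adjusted p = 0.372) and −0.17 (SE 0.14, adjusted p = 0.569). With vehicle the LKO differences were −0.41 and −0.29, and on both probe sets the LKO arrays lay below the WT arrays. Slc25a3, the mitochondrial phosphate carrier, spanned only 11.79 to 12.12 over all arrays, and its GW4064 differences were 0.01 (SE 0.07) in LKO and 0.09 (SE 0.07) in WBKO. Tmpo, whose lamina-associated polypeptides tether chromatin to the nuclear lamina, had 4 probe sets that disagreed: in WBKO they differed by −0.03, −0.12, 0.28 and 0.32, and in LKO by −0.33, 0.02, 0.08 and −0.04. Pairwise r between the Tmpo probe sets ran from −0.21 to 0.59.

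In all, 4 of the 15 probe sets passed in LKO against WT with GW4064, 2 higher and 2 lower, from Nr1h4, Nnt and Nr2c1, where 0.908% of all 22690 probe sets passed. Another 4 passed in WBKO against WT, 3 higher and 1 lower, from Nr1h4, Nnt and Ikbip, where 3.79% of all passed. The LKO count was 1 without WT GW4064 replicate 1 or LKO GW4064 replicate 1 and 2 without LKO GW4064 replicate 2 or 3. By the methods' t-test with Benjamini-Hochberg adjustment it was 1 in LKO, the first Nnt probe set, and 1 in WBKO, Nr1h4, with the same differences. The WBKO and LKO comparisons share the WT arrays and so are not independent. Over the 15 probe sets the median difference was −0.04 in LKO and −0.02 in WBKO, and over all probe sets it was −0.00 and −0.02. With vehicle, where earlier values chose the genes, the arrays of 8 probe sets in LKO and 7 in WBKO did not overlap with WT, against 19.8% and 19.2% of all probe sets, and nothing is read from these counts.

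WBKO against LKO with GW4064 passed for none of the 15 probe sets in limma, with 2 at an unadjusted p under 0.05 and none by the methods' t-test, where 1.42% of all probe sets passed. GW4064 against vehicle passed for none of the 15 in WT, LKO or WBKO, with 3, 2 and 1 at an unadjusted p under 0.05 in limma, and none by the methods' t-test in either form. Over all probe sets limma called 0.0176% for GW4064 in WT, 0% in LKO and 0% in WBKO. The largest GW4064 differences in WT were −0.31 for Nr2c1 (1449157_at, SE 0.16, adjusted p = 0.476) and −0.30 for Tmpo (1426349_s_at, SE 0.12, adjusted p = 0.319). Slc25a3 had the lowest adjusted p there (−0.18, SE 0.07, 0.293). The GW4064 effect in WT minus that in LKO passed for none (1 unadjusted, 0% of all probe sets) and that in WT minus WBKO for none (1 unadjusted, 0% of all). The lowest adjusted p of these was 0.503, for Tmpo (1426349_s_at), whose GW4064 effect was 0.53 lower in WT than in WBKO (SE 0.16).

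The genes that surround Nr1h4 were then described by distance, taken between gene starts in RefSeq. Within 5 Mb lay 82 probe sets of 44 genes, of which 8.54% passed in LKO against WT with GW4064 and 9.76% in WBKO. Without the members these shares were 7.25% and 8.70%, of 69 probe sets. From 5 to 10 Mb they were 1.16% and 5.23%, from 10 to 20 Mb 4.17% and 5.83%, beyond 20 Mb on chromosome 10 0.364% and 5.65%, and on other chromosomes 0.854% and 3.80%. Since members were chosen near Nr1h4 for their levels, and genes of a region are not independent, these shares are a description. The LKO share within 5 Mb was 3.66% without WT GW4064 replicate 1 or LKO GW4064 replicate 1, and 4.88% without LKO GW4064 replicate 2. Of the probe sets within 5 Mb, 6 passed in both knockouts, each in the same direction, and both comparisons share the WT arrays.

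**Figure D3:**
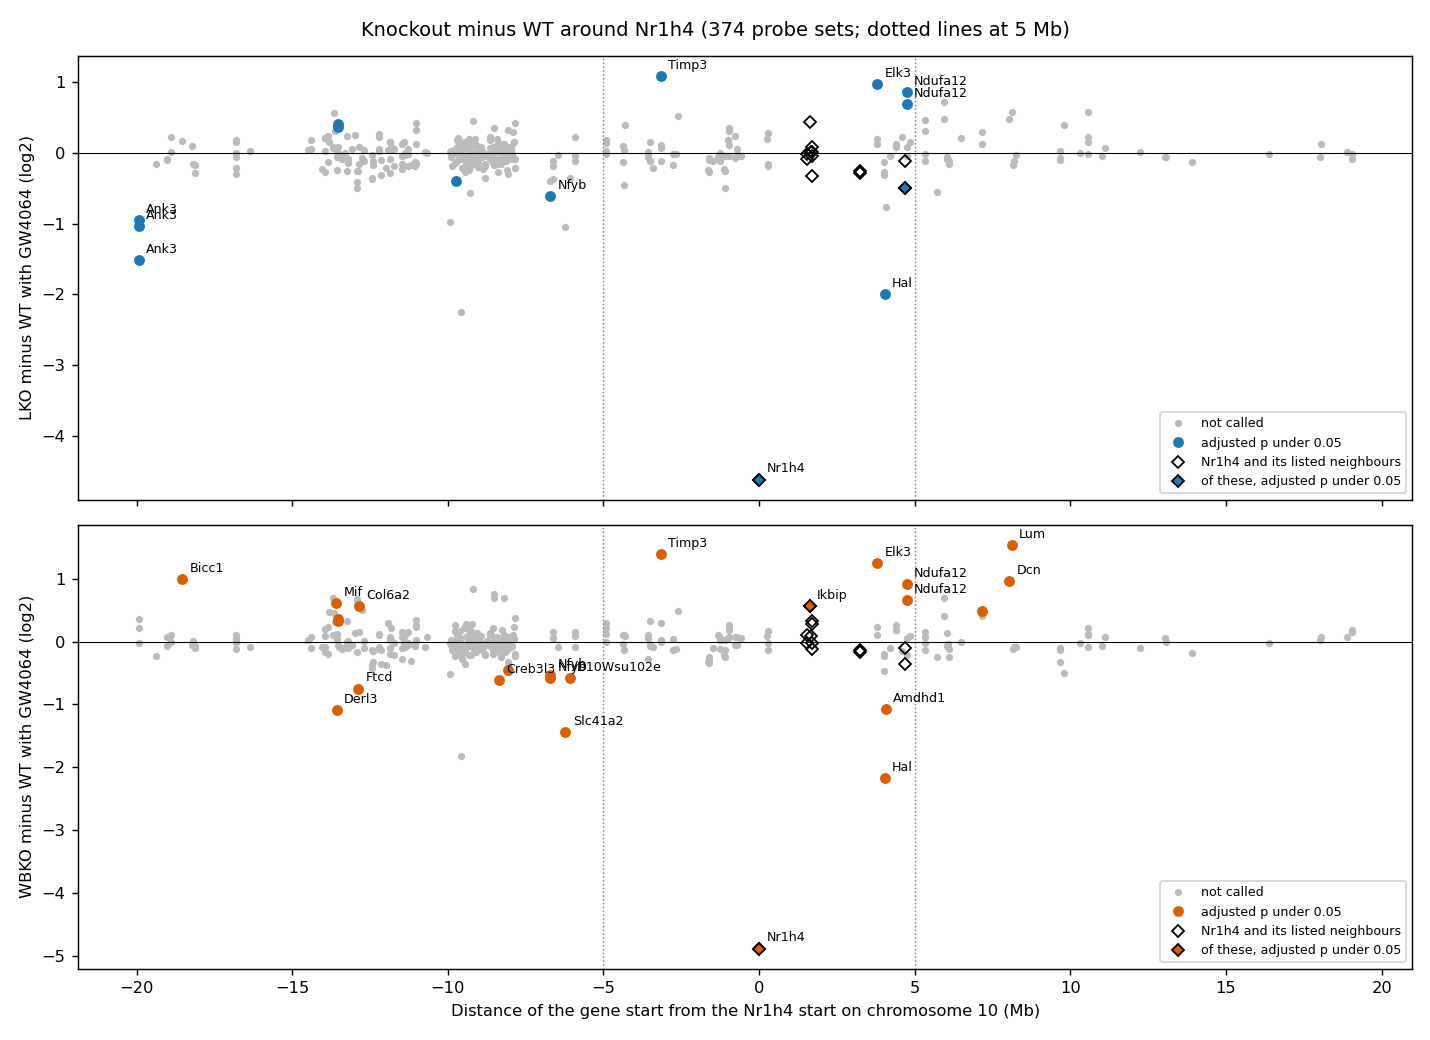
Difference between knockout and WT with GW4064 (log2, y axis) against the distance of each gene's start from that of Nr1h4 on chromosome 10 (Mb, x axis) for 374 probe sets within 20 Mb, LKO above and WBKO below. Coloured points passed at an adjusted p under 0.05 and diamonds mark Nr1h4 and its listed neighbours. Hal at −2.0 and −2.18 is the lowest coloured point after Nr1h4 in each panel.

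Most of the nearest genes with a probe set had no call. Chpt1, Spic, Arl1, Utp20 and Slc5a8 lie within 0.98 Mb on 1 side, Actr6 and Uhrf1bp1l within 0.29 Mb on the other, followed by Apaf1, Ikbip and Slc25a3 out to 1.66 Mb. Ikbip in WBKO was the only call among these 10 genes. Farther out, Hal, histidine ammonia-lyase of histidine breakdown, starts 4.03 Mb from Nr1h4. Its WT arrays read between 10.53 and 11.52, the LKO arrays between 8.92 and 9.76 and the WBKO arrays between 8.51 and 9.69. No knockout array reached the lowest WT array. The GW4064 difference was −2.0 in LKO (SE 0.26, limma adjusted p = 0.000932) and −2.18 in WBKO (SE 0.26, adjusted p = 0.000162). Amdhd1, the next gene and another enzyme of histidine breakdown, differed by −0.77 in LKO (SE 0.24, adjusted p = 0.146) and −1.08 in WBKO (SE 0.24, adjusted p = 0.0172). Without WT GW4064 replicate 1 the Amdhd1 difference in WBKO had an adjusted p of 0.0636. The study lists Hal and Amdhd1, and Ftcd named below, among genes with FXR binding upstream in livers of GW4064-treated mice. That binding data had no control antibody. Whether position or loss of FXR lies behind these differences was not tested.

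Ndufa12, a subunit of mitochondrial complex I, starts 4.74 Mb from Nr1h4 and next to Nr2c1, and 2 of its 4 probe sets rose. On 1418814_s_at the WT arrays read between 10.08 and 10.73 and the knockout arrays between 11.12 and 11.52, with GW4064 differences of 0.86 in LKO (SE 0.13, adjusted p = 0.00386) and 0.92 in WBKO (SE 0.13, adjusted p = 0.000725). On 1433513_x_at they were 0.69 (SE 0.12, adjusted p = 0.00901) and 0.66 (SE 0.12, adjusted p = 0.0038). The other 2 gave −0.05 and 0.09 in LKO and −0.21 and 0.05 in WBKO and did not pass, so the gene's probe sets disagree. The LKO difference on 1433513_x_at had an adjusted p of 0.054 without WT GW4064 replicate 1.

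Timp3, an inhibitor of matrix metalloproteinases, and Elk3, an ETS factor of endothelium, also rose in both knockouts on 1 probe set each. Timp3 (3.15 Mb on the other side of Nr1h4) differed by 1.09 in LKO (SE 0.23, adjusted p = 0.0335) and 1.39 in WBKO (SE 0.23, adjusted p = 0.00243), and its other 3 probe sets did not pass. Elk3 (3.79 Mb) differed by 0.97 (SE 0.19, adjusted p = 0.0218) and 1.25 (SE 0.19, adjusted p = 0.00144), while with vehicle its LKO difference was 0.01. Without WT GW4064 replicate 1 the LKO differences were 0.80 for Timp3 (adjusted p = 0.157) and 0.66 for Elk3 (adjusted p = 0.055). Markers of other cell types differed too. With GW4064 the summed level of the 8 stellate cell and fibroblast markers was 9.81 on WT GW4064 replicate 1 and 10.72 and 10.71 on the other WT arrays, 10.70 to 11.09 in LKO and 11.46 to 11.78 in WBKO. LKO thus overlapped with WT apart from that 1 array, and WBKO lay above both. With vehicle it was 10.83 to 11.14 in WT, 10.89 to 11.09 in LKO and 11.45 to 11.53 in WBKO. Of these 8 markers 4 rose in WBKO (Col1a1, Col3a1, Dcn and Pdgfrb) and none passed in LKO by limma. All 8 endothelial markers read above WT with GW4064 in both knockouts, with medians of 0.43 in LKO and 0.37 in WBKO, and Lyve1 in WBKO (1.24) was the only call. Their summed level was 9.87 to 10.52 in WT, 10.59 to 10.84 in LKO and 10.41 to 10.76 in WBKO. With vehicle it was 10.61 to 10.72 in WT, 10.73 to 10.78 in LKO and 10.86 to 11.01 in WBKO, and 4 of the 8 markers read above WT in LKO and 8 in WBKO. In WT all 8 read lower with GW4064 than with vehicle (median −0.41), against medians of −0.02 in LKO and −0.31 in WBKO, with no call. Of 7 Kupffer cell markers 6 read above WT with GW4064 in each knockout (medians 0.43 and 0.42) with no call. Fabp2 of enterocytes and Hnf4a of hepatocytes fell in WBKO, and no cholangiocyte, lymphocyte, neutrophil or pancreas marker passed in either knockout. The part of other cell types in the Timp3 and Elk3 results was not tested.

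Between 5 and 20 Mb the calls in both knockouts were Nfyb (1419267_at, −0.61 in LKO, −0.58 in WBKO), a subunit of the CCAAT-binding factor, and both probe sets of Chchd10, a mitochondrial protein, with 0.37 and 0.41 in LKO and 0.36 and 0.33 in WBKO. Ank3, ankyrin G, fell in LKO on 3 probe sets by 0.95, 1.03 and 1.52 log2 units, while in WBKO it differed by −0.03, 0.21 and 0.36 with no call. On these probe sets WBKO read above LKO by 0.93, 1.24 and 1.88 (limma adjusted p = 0.00649, 0.0131 and 0.000736). Bsg, basigin, fell in LKO by 0.40, and its difference between the knockouts missed the threshold (0.30, adjusted p = 0.0516). In WBKO with no LKO call, Bicc1, Mif, Col6a2, Btg1, Dcn and Lum rose by 0.49 to 1.54, and Derl3, Ftcd, Creb3l3, Nfic, Slc41a2 and D10Wsu102e fell by 0.45 to 1.44. Dcn and Lum, proteoglycans of the collagen matrix, stand beside the fibroblast marker levels given above. Between the knockouts themselves, Bicc1 (0.83), Col6a2 (0.48), Ftcd (−0.49) and Nfic (−0.53) differed past the threshold, WBKO minus LKO, with adjusted p-values between 0.00666 and 0.0354, and the other 8 did not.

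Around Nnt, the nearest genes with a probe set were Isl1, Parp8, Emb, Mrps30 and Fgf10 on 1 side and Paip1, 4833420G17Rik, 3110070M22Rik, Tmem267 and Ccl28 on the other. Tmem267, a membrane protein gene 0.15 Mb from Nnt, fell as Nnt rose. Its WT arrays read between 6.66 and 7.38. The LKO arrays read 6.80, 5.88 and 6.25 with vehicle and 5.66, 4.80 and 5.38 with GW4064, and the WBKO arrays read between 4.34 and 5.88. The GW4064 difference was −1.77 in LKO (SE 0.34, limma adjusted p = 0.017) and −2.12 in WBKO (SE 0.34, adjusted p = 0.0019). LKO vehicle replicate 3 read 6.25 in Tmem267, below the WT arrays, and it was LKO vehicle replicate 1, at 6.80, that lay inside the WT range. Of 35 probe sets within 5 Mb of Nnt, 14.3% passed in LKO and 11.4% in WBKO. Over all probe sets with a RefSeq position the shares were 0.894% and 3.89%. Without Nnt they were 9.09% and 6.06% of 33, which is 3 probe sets in LKO and 2 in WBKO. These were of Tmem267 and Hmgcs1 in LKO and of Tmem267 and 4833420G17Rik in WBKO, so the shares are a description. Hmgcs1, an enzyme of cholesterol synthesis 0.35 Mb from Nnt, fell in LKO on 2 of its 4 probe sets (−0.89 and −0.97, adjusted p = 0.0278 and 0.045). The other 2 differed by −1.12 and −1.08 and missed the threshold (adjusted p = 0.0576 and 0.0871). With vehicle the 4 differed by −1.19 to −0.75 in LKO, and with either gavage the LKO arrays lay below WT on all 4. With GW4064 all 4 read higher in WBKO than in LKO, by 1.43 to 1.85, with adjusted p-values between 0.000943 and 0.00649. The last call was 1 of 3 probe sets of 4833420G17Rik in WBKO (−0.40, adjusted p = 0.0446).

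**Figure D4:**
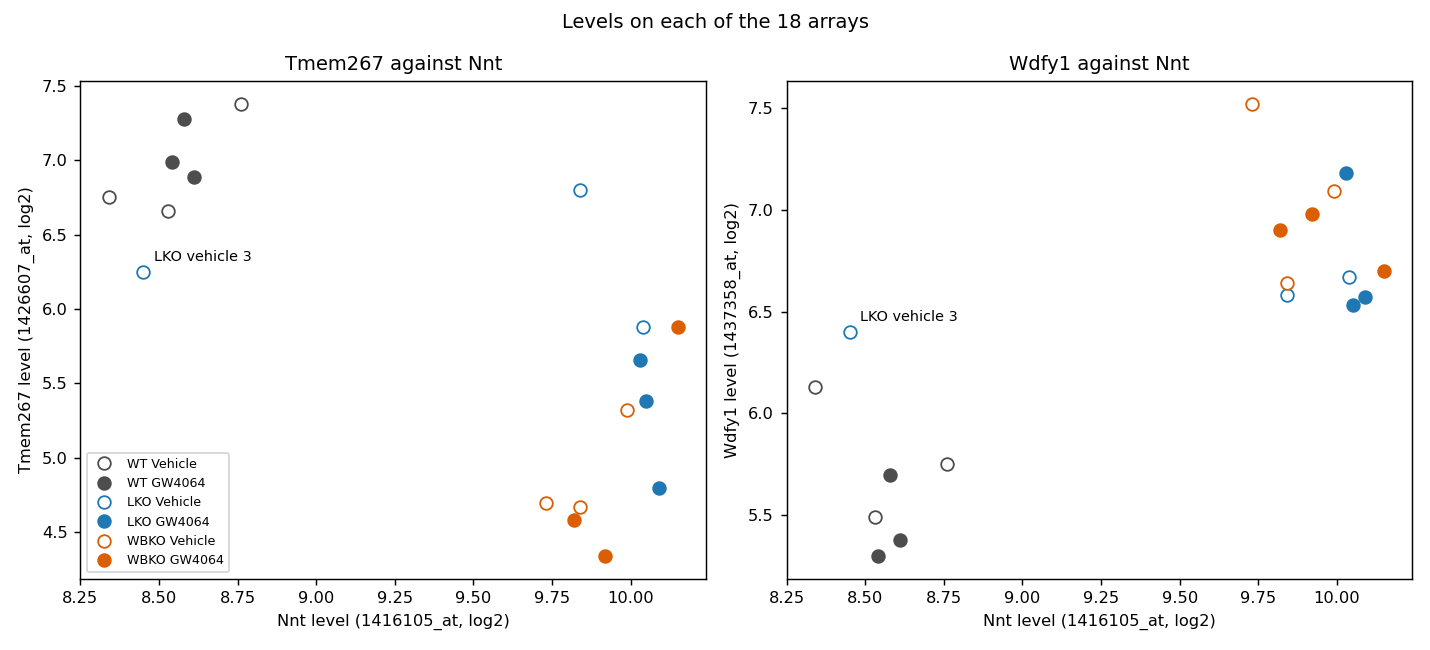
Level of Tmem267 (left) and Wdfy1 (right, its brightest probe set) against the level of Nnt (log2, both axes) on each of the 18 arrays, coloured by genotype, open for vehicle and filled for GW4064. LKO vehicle replicate 3 lies with the WT arrays on the Nnt axis at 8.45, and at 6.25 in Tmem267 and 6.40 in Wdfy1.

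The genes most like Nr1h4 over the 18 arrays, by Pearson r and as a description, were Apeh (0.97), Cdhr5 (0.96), Gpld1 (0.95), Olfm3 (0.94) and Ndrg2 (0.94). The most opposite were Cyrib (−0.93), 2 probe sets of Ndufa12 (−0.93 and −0.91), Fut8 (−0.93) and Leap2 (−0.90). The arrays form 2 clusters by genotype in Nr1h4, so these values reflect the step between WT and knockout. Apart from Ndufa12, these genes lie on other chromosomes than 10. For Nnt the highest were Wdfy1 (0.87), U2surp (0.86), Tmem109 (0.86), Lrp4 (0.85) and Fut8 (0.83), and the lowest Irs4 (−0.88), Apeh (−0.88), Nr1h4 (−0.87), Olfm3 (−0.84) and Cdhr5 (−0.83). On LKO vehicle replicate 3, U2surp at 8.20 and Lrp4 at 6.52 lay inside the WT ranges of 8.17 to 8.25 and 6.11 to 6.72. Wdfy1 at 5.59, Tmem109 at 8.68 and Fut8 at 6.19 lay above the highest WT arrays (5.5, 8.59 and 5.75). The genes were picked by their r with Nnt over these same arrays, which favours low readings on this array, so nothing is read from them.

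A list of genes known to vary between mouse strains, besides the members, had 6 of 8 genes measured. Wdfy1, an endosomal protein gene on chromosome 1, rose in both knockouts with GW4064, by 1.30 in LKO (SE 0.21, adjusted p = 0.00588) and 1.40 in WBKO (SE 0.21, adjusted p = 0.00109), with WT arrays between 5.30 and 6.13 and knockout arrays between 6.40 and 7.52. The gene has 3 probe sets, and these values are of its brightest, not of the one correlated with Nnt above. Ide, Cyfip2, Crb1, Glo1 and Alad did not pass in either, with differences between −0.24 and 0.39. Over all genes, the background for this list and those below, 0.984% were called in LKO and 4.32% in WBKO, each gene by its brightest probe set.

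The partners of Nnt in mitochondrial NADPH supply and redox defence had 16 of 22 genes measured. None passed in LKO by limma with GW4064 (median difference 0.01), where 0.984% of all genes did. In WBKO 4 of the 16 rose (median 0.25), where 4.32% of all genes were called: Idh2 by 0.61, Prdx3 by 0.62, Idh3a by 0.79 and Pgd by 1.11. With vehicle the WBKO median was 0.07. GW4064 against vehicle had a median of −0.10 in WT and 0.04 in WBKO, with no call. Idh2 makes NADPH inside mitochondria, Idh3a is part of the NADH-making enzyme of the citric acid cycle, Prdx3 is a mitochondrial peroxidase, and Pgd makes NADPH in the cytosol. Idh2 and Pgd also differed between the knockouts, WBKO above LKO by 0.64 (adjusted p = 0.0124) and 0.97 (adjusted p = 0.0145), and Prdx3 (0.39, adjusted p = 0.0506) and Idh3a (0.36, adjusted p = 0.383) did not pass.

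The partners and relatives of FXR (18 of 22 measured, among them Rxra) had no call in LKO (median 0.01) and 1 in WBKO (median −0.09), Hnf4a, a hepatocyte transcription factor, at −0.43 (SE 0.10, adjusted p = 0.0219). Of a list of FXR target genes 26 of 28 were measured. The list, with Rarres2, Mme and Csad in it, was drawn up with earlier results of these data known. Its calls are therefore a description. In LKO with GW4064 Apoc2 (−0.80, adjusted p = 0.0313) and Rarres2 (−1.87, adjusted p = 0.000433) fell and none rose. Against WT with GW4064, 5 fell in WBKO, among them Rarres2, the chemerin gene (−1.84, SE 0.22, adjusted p = 0.000199), and the repressor Nr0b2 (−2.20, SE 0.34, adjusted p = 0.00135). The 3 that rose included Cyp8b1, the enzyme that makes cholic acid (2.81, SE 0.41, adjusted p = 0.000959), and Csad of taurine synthesis (2.40, SE 0.30, adjusted p = 0.000285). The medians were −0.18 in LKO and −0.16 in WBKO. For GW4064 against vehicle in WT only Csad passed, at −2.76 (SE 0.30, adjusted p = 0.00143). There Nr0b2 (1.85, SE 0.34) and Cyp8b1 (−2.44, SE 0.41) just missed the threshold, each with an adjusted p of 0.0526. With vehicle, and with no test, WBKO differed from WT by 0.39 for Nr0b2, 0.72 for Cyp8b1, −0.08 for Csad and −1.91 for Rarres2. The fall of Nr0b2 and the rise of Csad in WBKO were thus not seen with vehicle.

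Of the partners of Apaf1 in mitochondrial apoptosis 13 of 16 were measured, and only Bcl2l11, a cell death promoter of the BCL2 family, passed with GW4064: it rose by 0.74 in LKO (SE 0.15, adjusted p = 0.0195) and 0.93 in WBKO (SE 0.15, adjusted p = 0.00152). The median of the list was −0.05 in LKO and −0.02 in WBKO. Of 23 measured partners and paralogues of the other neighbours (25 listed), which include lamins, γ-tubulin complex proteins, mitochondrial carriers and the TR2 relative Nr2c2, none passed in LKO by limma (median 0.03) and 1 rose in WBKO (median 0.09), the ATP/ADP carrier Slc25a4 (1.38, SE 0.28, adjusted p = 0.0106).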

How the data were processed

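RNA from mouse liver was hybridised to 18 Affymetrix arrays, 3 in each of 6 groups, and every array was assigned by its GEO labels. The deposited values are log2 intensities, 1 per probe set, which the authors made with robust multi-array averaging (RMA). The version of RMA is not given in the sources used here. Precision is set by having 3 arrays a group. Probe sets were named from the platform annotation: of 22690, 20393 carried 1 gene symbol, 691 several and 1606 none, and genes were named only from the first kind. RefSeq positions (GRCm38.p6) were found for 20364 probe sets and gave distances and promoter windows. limma 3.58.1 in R 4.3.3 fitted 6 group means to all probe sets with 12 residual degrees of freedom. Its moderated test was two-sided, with Benjamini-Hochberg adjustment over all probe sets and a threshold of 0.05, and passed, called, rose and fell mean past it. The code was tested on simulated data.

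The members and gene lists were chosen with earlier results of these data known. The vehicle differences between genotypes are therefore given with no test, and the GW4064 comparisons are not independent evidence. Each listed gene was read by its probe set with the highest mean. Named were the members, their 5 nearest measured genes on each side, calls within 20 Mb of Nr1h4, the 5 most and least correlated probe sets of Nr1h4 and Nnt, and up to 4 calls per list and comparison. Calls near Nnt other than these, Hmgcs1 among them, were named after their values were seen. Alternatives were array weights, no dimmest 40% of probe sets, median centring, quantile normalization, a replicate block, trended and robust variances, 1 probe set per gene, only the groups compared, other windows, each array left out, and the methods' t-test, plain or adjusted.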

Additional observations from a re-analysis of the deposited data

How the results depend on the processing

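Of 788 refitted differences of single member probe sets over 30 results, 742 kept their direction and side of the threshold, 21 lost and 5 gained a call, and 20 changed sign, all without a call. With array weights the sign changed for Apaf1 (1452870_at, 0.01) and Tmpo (1452036_a_at, 0.01) in LKO and for Tmpo (1421237_at, 0.03) in WBKO. Leaving out 1 array at a time gave, in LKO, −0.06 to 0.04 for that Apaf1 probe set, −0.05 to 0.04 for Slc25a3, −0.06 to 0.15 (1426020_at) and −0.1 to 0.06 (1452036_a_at) for Tmpo, and −0.23 to 0.05 for Nr2c1 (1449157_at). In WBKO it gave −0.11 to 0.04 for Apaf1 (1450223_at), −0.22 to 0.15 (1421237_at) and −0.19 to 0.02 (1426020_at) for Tmpo, and −0.22 to 0.02 for Nr2c1 (1449157_at). The LKO count of 4 called probe sets ranged from 1 to 4 with 1 array left out, and by the methods' t-test with Benjamini-Hochberg adjustment the counts were 1 in LKO and 1 in WBKO.

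The LKO share called within 5 Mb of Nr1h4 (8.54%) ranged from 3.66% to 11% with 1 array left out. It was 3.54% within 10 Mb, 3.74% within 20 Mb, 2.44% with only the groups compared and 0% by the adjusted t-test. The WBKO share (9.76%) was 6.42% within 20 Mb, 2.44% with only the groups compared and 1.22% by the adjusted t-test. Over all probe sets, only the groups compared gave 53 calls in LKO and 121 in WBKO against 206 and 861, the adjusted t-test gave 2 and 2, and 1 probe set per gene gave 131 and 575 of fewer tested. With 1 array left out, calls over all probe sets ranged from 55 (without LKO GW4064 replicate 1) to 608 (without WT GW4064 replicate 3) in LKO, from 363 (without WT GW4064 replicate 1) to 1270 (without WT GW4064 replicate 3) in WBKO and from 112 to 601 for WBKO against LKO (323 with all). For GW4064 in WT they ranged from 1 to 393 (4 with all), and over the other alternatives from 0 to 106 in WT, 0 to 57 in LKO and 0 to 22 in WBKO. The interactions, with 0 calls, reached 64 and 27 without WT GW4064 replicate 3.

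The replicate number as a block gave 4 called member probe sets in LKO and 5 in WBKO, where Nr2c1 (1418605_at, −0.35) reached an adjusted p of 0.0417. The labels do not say that a number marks a shared animal or day. Deviations of the 45 pairs with the same number correlated between −0.21 and 0.32, 11 of them over 0.1, so that not every pair passed that value and the samples are taken to share only a number. That 12 of 18 arrays correlated best with their own number is a hint from the data, not the design, that the numbers may mark something shared. The counts of 0 member probe sets for GW4064, for WBKO against LKO and for the interactions stayed 0 under every alternative run, and the methods' t-test was not run for the interactions. Signal over background on each array was not analysed here.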
